A study of Bos taurus with 6 samples.

Results

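The KCNQ1 domain was examined as 1 interval of chromosome 29 of the bovine assembly UMD3.1, from 48676546 to 50689396 (2012851 bp). The authors' deposited table of differentially methylated regions lists 334 regions, of which 1 carries the gene symbol KCNQ1. The interval is the KCNQ1 gene range of that table, 49676546 to 49689396 (12851 bp), with 1000000 bp added on each side. KCNQ1 was chosen on the authors' deposited means, 52% in Creole and 94% in Spanish cattle, so the contrast at that region is given as a description and is not tested. Blood DNA of 6 adult male cattle was digested with the restriction enzyme MspI and bisulfite sequenced, a design known as reduced representation bisulfite sequencing, which reads methylation at CpG-rich fragments. The 3 Creole libraries were Sanmartinero (Creole 1) and Costeno con Cuernos (Creole 2 and 3), and the 3 Spanish libraries were Lidia (Spanish 3), Asturiana de los Valles (Spanish 2) and Retinta (Spanish 1). Breeds differ within both groups. DNA of Creole animals was extracted with the UltraClean BloodSpin kit and DNA of Spanish animals with the QIAamp kit, and the lane mark also changed with the group, so breed group, kit and lane cannot be told apart. Nothing in the labels says how many DNA preparations stand behind a library, so the spread between libraries may be partly technical.

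KCNQ1 encodes the pore-forming subunit of a voltage-gated potassium channel. In mouse and human an intron of the gene holds an imprinting centre, a CpG-rich element that is methylated on the maternal chromosome and unmethylated on the paternal one. The unmethylated copy is the promoter of KCNQ1OT1, a long non-coding RNA that silences neighbours such as CDKN1C, a cell cycle inhibitor, and PHLDA2, a regulator of placental growth. The neighbouring domain of IGF2, a fetal growth factor, and H19, a non-coding RNA, has its own control region. An imprinted control region with both parental copies read equally shows intermediate methylation at every cytosine, and the search here was for such stretches beside fully methylated and unmethylated ones. In RefSeq's gene order for the assembly ARS-UCD2.0, which was used for names and order only, KCNQ1 stands between CDKN1C and TRPM5, a cation channel gene. Of a list of 24 genes of the domain, 22 were found in RefSeq, all 22 on chromosome 29, and KCNQ1 was the only 1 with a region in the authors' deposited table. Of 28 other imprinted genes, 0 had a region there. Listed regions were few, with 92 of 18523 named protein-coding genes of RefSeq (0.497%) carrying one, so both counts are given as descriptions. Gene positions of UMD3.1 other than those in the authors' table were not used here, so bins are named by position.

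Coverage of the interval was uneven between libraries. Cytosines with at least 10 calls, each strand counted apart, numbered 10435, 3450 and 2305 in Creole 1 to 3 and 3932, 8242 and 4422 in Spanish 1 to 3. Their median depth ran from 19 calls in Creole 1 and Spanish 1 to 75 calls in Creole 3. Of 20321 cytosines that reached 10 calls in any library, 11844 did so in 1 library and 17 in all 6. Creole 1 stood apart in another way: 73.2% of its cytosines in the interval read exactly 0% or 100%, against 93.3% to 94.3% in the other libraries. Cytosines between 20% and 80% made up 14.7% of Creole 1 and 1.48% to 4.46% of the others. Creole 1 also stood apart over the rest of the chromosomes, where 68.6% of its cytosines read 0% or 100%, against 87.1% to 91.7%. Cytosines between 20% and 80% were 15.5% of Creole 1 there and 3.38% to 4.73% of the others. That share was lower in the interval in every library, a difference that was not tested. Results that rest on Creole 1 are therefore given with and without it.

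The interval was more methylated than the rest of the genome in every library. The mean level of its cytosines was 65.7%, 67.0% and 64.2% in Creole 1, 2 and 3 and 65.1%, 67.6% and 66.5% in Spanish 1, 2 and 3. Elsewhere on the chromosomes the same libraries averaged 50.6% to 57.2%. The difference averaged 12.5 percentage points ± 3.1 (SD, n = 6), was positive in 6 of 6 libraries and gave p = 0.03125 in an exact sign-flip permutation test (two-sided), the smallest p that 6 libraries allow, or 0.0417 after Benjamini-Hochberg adjustment over 12 such comparisons. The libraries share one genome, so this test asks whether they repeat the difference and does not set the interval against other intervals of its size. Against the rest of chromosome 29 the difference was 10.4 percentage points ± 2.85 (SD, n = 6), again in 6 of 6 libraries.

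Bins of 1000 bp with at least 3 cytosines were sorted into 5 classes by their share of methylated calls: up to 10% unmethylated, to 35% low, 35 to 65% near 50%, to 90% high, and above that methylated. Unmethylated bins were scarcer in the interval than elsewhere in 6 of 6 libraries, as the plot of bin classes shows. They were 7.15%, 10.3% and 11.4% of bins in Creole 1 to 3 and 11.2%, 9.49% and 11.2% in Spanish 1 to 3, against 13.5% to 21.6% over the rest of the chromosomes. High bins were 43.6% to 54.7% of the interval, a larger share than elsewhere in 6 of 6 libraries. Bins near 50% were 16.2% of the interval in Creole 1 and 9.49% to 13% in the other 5 libraries. They were less frequent than in the rest of the chromosomes in 5 of 6 libraries, with a mean difference of -1.41 percentage points (exact sign-flip permutation p = 0.0938, adjusted 0.1125, n = 6), which did not pass the threshold of 0.05. Creole 2 was the exception, at 13% against 12.5%. Against the rest of chromosome 29 alone, bins near 50% were less frequent in 6 of 6 libraries, by a mean difference of -2.98 percentage points (exact sign-flip permutation p = 0.03125, adjusted 0.0417, n = 6). In 100 bp bins the share near 50% was above that of the rest of the chromosomes in 3 of 6 libraries, at 14.7% against 14.4% in Creole 1, 10.1% against 8.53% in Creole 2 and 8.39% against 7.18% in Spanish 3. It was below it in the other 3, at 7.31% against 8.56% in Creole 3, 6.51% against 7.92% in Spanish 1 and 7.17% against 7.92% in Spanish 2.

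**Figure D1:**
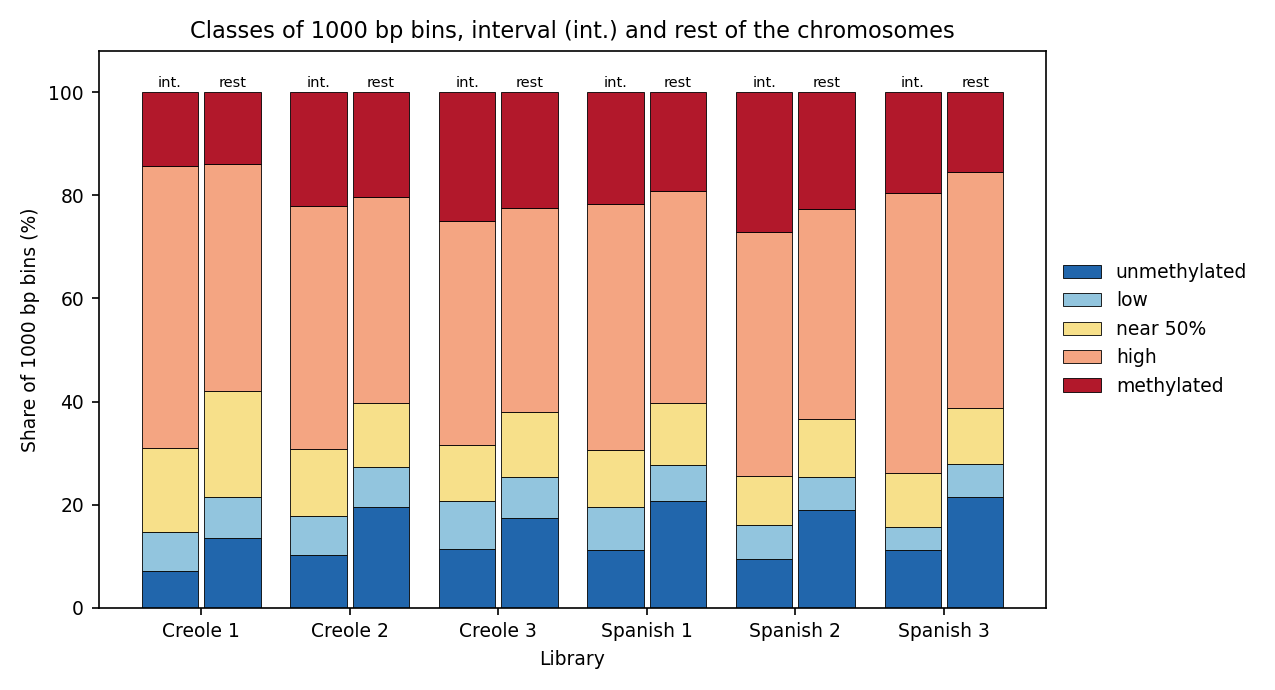
Share of 1000 bp bins (vertical axis, percent) in each of 5 methylation classes for the 6 libraries (horizontal axis); the left bar of each pair is the KCNQ1 interval and the right bar the rest of the chromosomes, and the middle class is 35 to 65%. The blue unmethylated part is smaller in the interval in every library, 7.15% against 13.5% in Creole 1, for example.

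Along the interval, the level did not fall into a simple gradient around KCNQ1. Split into 20 segments of 100 kb, the first segment (48676546 to 48776545) was the most methylated, with a median over libraries of 79.8% (range 69.5% to 84.6%) and no unmethylated bin in any library. The segment that begins at the gene range, 49676546 to 49776545, had a median of 64.9% (57.2% to 73.1%). The least methylated segment lay at 49876546 to 49976545, with a median of 49.1% (43.8% to 60.1%). The ranges of these highest and lowest segments did not overlap. Directly before the gene range, at 49576546 to 49676545, only 6 to 91 cytosines per library reached 10 calls, so that stretch was hardly sampled.

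**Figure D2:**
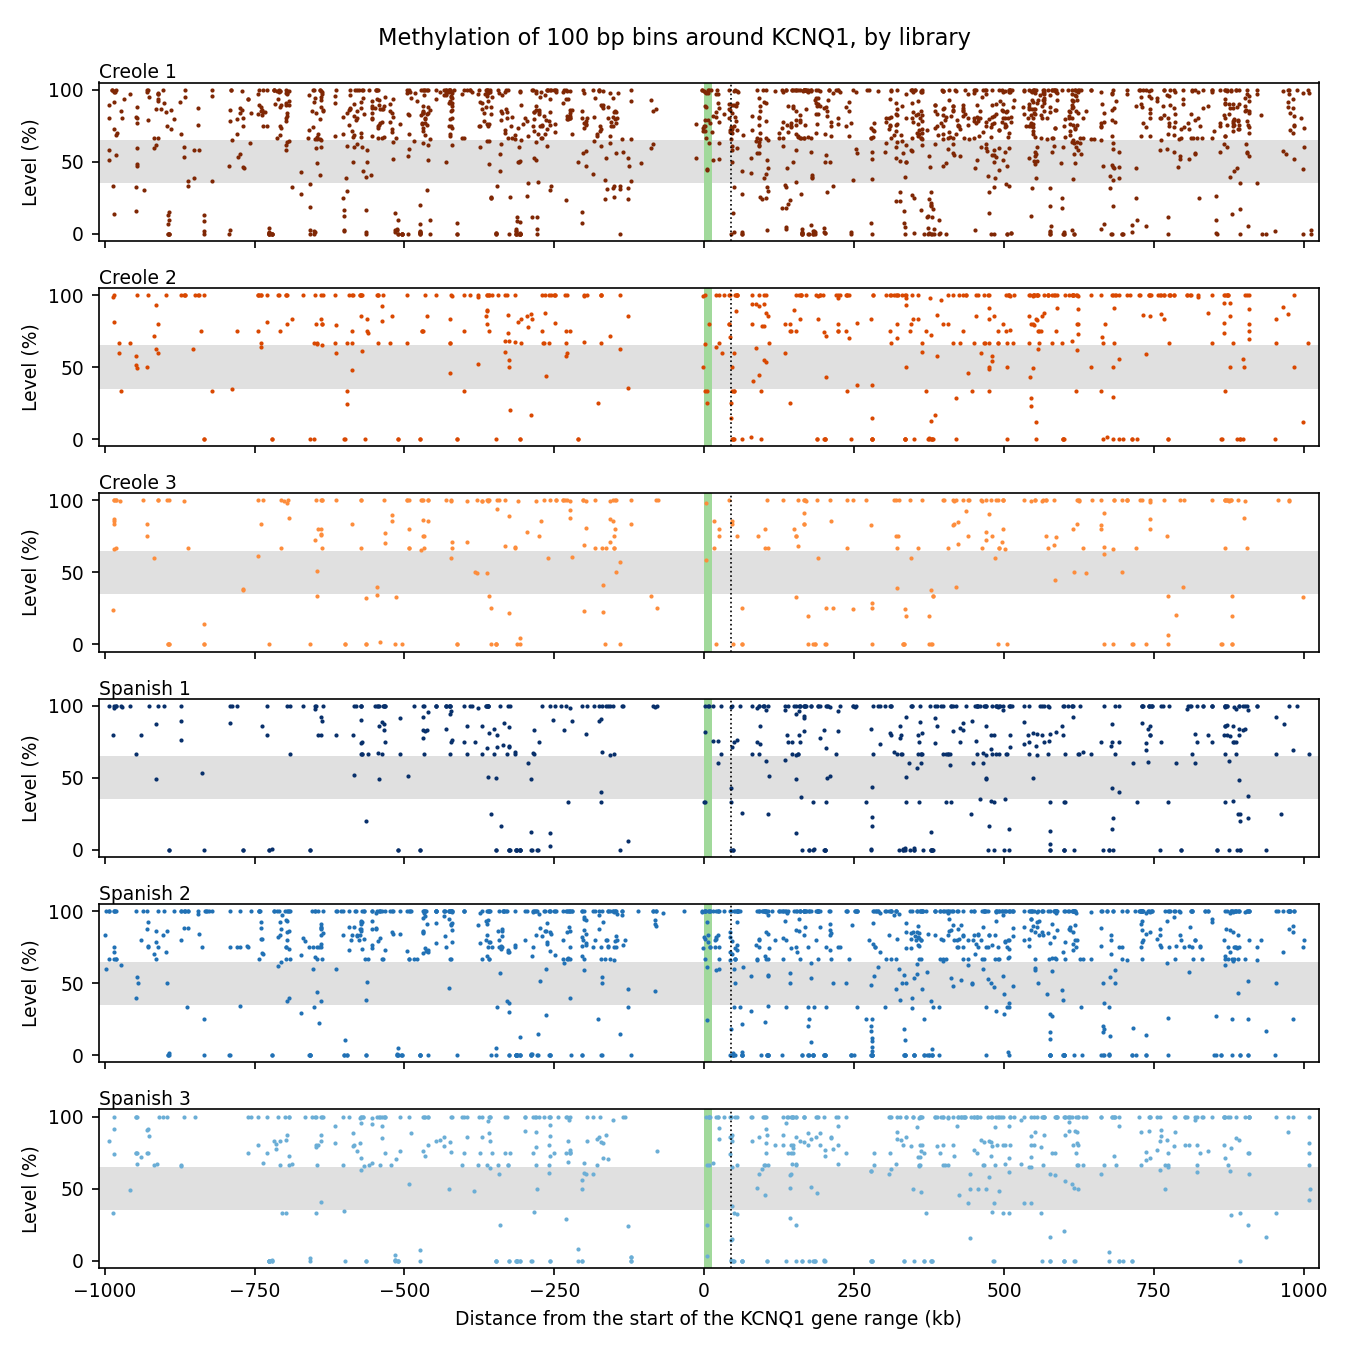
Methylation level (percent) of each 100 bp bin against its distance in kb from the start of the KCNQ1 gene range, 1 panel per library; the green bar is the gene range, the dotted line the listed region, and the grey band 35 to 65%. Points crowd at 100% and 0% in all panels, and Creole 1 fills the space between them more than the other libraries.

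Within the KCNQ1 gene range itself, 137, 34 and 13 cytosines reached 10 calls in Creole 1 to 3 and 36, 100 and 66 in Spanish 1 to 3. Their mean levels were 72.4%, 64.7% and 76.2% in the Creole libraries and 72.2%, 82.3% and 55.2% in the Spanish ones, so the groups overlapped. Cytosines between 20% and 80% were 21 of the 137 in Creole 1, 4 of the 100 in Spanish 2 and 1 of the 66 in Spanish 3, and none in the other 3 libraries. Runs of at least 6 cytosines numbered 12, 3 and 1 in Creole 1 to 3 and 4, 9 and 5 in Spanish 1 to 3. None had at least 80% of its interior cytosines between 20% and 80%. Over the rest of the chromosomes such runs were 3.13% in Creole 1 and 0.416% to 0.67% in the others. A count of 0 among so few runs therefore does not set the gene range apart. The bin 49677001 to 49678000 ranged from 74.7% in Spanish 3 to 93.1% in Spanish 2 over the 5 libraries that measured it. The next bin, 49678001 to 49679000, was the closest to a shared low level, at 35.7% and 33.1% in Creole 1 and 2 and 33.3% in Spanish 1, from 6 cytosines each. The bin 49681001 to 49682000 differed within both groups, with 40.8% and 25.0% in Creole 1 and 2 and 50.1% and 8.53% in Spanish 2 and 3. Near the end of the range, 49686001 to 49687000 read 6.15% in Creole 1 from 3 cytosines and 83.6% in Spanish 2 from 17, and no other library measured it.

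Bins that held the same class in all libraries anchored both ends of the scale. Of 373 bins measured in at least 4 libraries, 16 were unmethylated in every measured library (4.29%, against 14.1% of such bins elsewhere). Methylated in every measured library were 9 of 373 (2.41%, against 2.06% elsewhere). The unmethylated bins with the broadest coverage began at 49202001, 49877001, 50276001, 48955001 and 50027001. At 49202001 to 49203000, Creole 1 read 1.43% over 99 cytosines, Spanish 2 0.109% over 40 and Spanish 3 4.35% over 23, while Creole 2 and Spanish 1 read 0.118% and 0% over 10 each. At 49877001 to 49878000, all 5 measured libraries lay at or under 0.414%. Among the methylated bins, 50422001 to 50423000 read 99.3% in Creole 1, 99.9% in Creole 2 and 100% in Spanish 1 and Spanish 2, and 50419001 to 50420000 ranged from 90.4% in Spanish 3 to 100% in Creole 2 and 3. The other broadly covered methylated bins began at 49316001, 50264001 and 49844001. Bins with at least 1 library up to 10% and at least 1 at 90% or more numbered 8 of 373 (2.14%, against 1.49% elsewhere).

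Only 1 bin of 1000 bp read near 50% in every library that measured it, 1 of 373 (0.268%), beside 284 of 48227 bins over all chromosomes, where percent called was 0.589. In 100 bp bins the count was 1 of 248 (0.403%), beside 294 of 37661, where percent called was 0.781. Both counts refer to the same place. The bin 50013001 to 50014000 read 59.6% and 61.1% in Creole 1 and 2 and 60.6% and 52.9% in Spanish 1 and 2, and its 100 bp bin 50013101 to 50013200 read 50% in 3 of them and 50.6% in Spanish 1. Of the 4 cytosines per library in the small bin, each read 0% or 100% in every one of those 4 libraries. As read, its values near 50% were thus averages of cytosines at 0% and at 100%. Most cytosines of the interval read 0% or 100% in every library. How many DNA molecules stand behind the reads was not tested, so these readings cannot show whether the cytosines were intermediate in the blood DNA. No bin of the interval at either size was near 50% in every measured library with at least 66.7% of its cytosines between 20% and 80% (0 of 373 and 0 of 248). Over all chromosomes 1 bin of 1000 bp and 5 bins of 100 bp met that stricter description. Without Creole 1, no bin of either size remained near 50%, because the bin then fell under 4 measured libraries.

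Within single libraries, bins near 50% often held no intermediate cytosine either, in the interval and elsewhere. Among the interval's 1000 bp bins near 50% in a given library, some had no cytosine at all between 20% and 80%. These were 78.8% and 87.1% in Creole 2 and 3, 75.0%, 67.2% and 70.8% in Spanish 1 to 3, but 26.1% in Creole 1. Over the rest of the chromosomes they were 73.3% and 77.4% in Creole 2 and 3, and 23.7% in Creole 1. In Spanish 1 to 3 they were 72.4%, 57.5% and 66.9% there. For bins near 50% in 1 library, 13.7% to 26.4% of the values that other libraries gave were again between 35% and 65%. Among all bins of the interval, 9.49% to 16.2% per library were near 50%. Over the rest of the chromosomes the repeat share was 24.1% to 33.6%, beside 10.8% to 20.4% of all bins. These differences were not tested.

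Cytosines in these files came in runs that share the same number of calls, as reads of one fragment do. Runs of at least 6 cytosines with call numbers within 2 calls or 10% of each other are called stacks here, and their level is taken from the interior cytosines. The interval held 849, 308 and 199 stacks in Creole 1 to 3 and 338, 714 and 380 in Spanish 1 to 3, with a median of 8 cytosines in each library. Interior cytosines read exactly 0% or 100% in 80.4% of cases in Creole 1 and in 94.3% to 94.6% in the other libraries. Over the rest of the chromosomes that share was 77.8% in Creole 1 and 86.4% to 92.4% in the others. Methylated stacks were 45.5% to 56.8% of all and unmethylated stacks 11% to 14.2%. Over the rest of the chromosomes they were 34.6% to 39.3% and 25.8% to 33.3%. The reads carry no molecular identifiers, so how many DNA molecules stand behind a stack was not tested, and counting intervals here cover counting error only.

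The first or last cytosine of a methylated stack often read low in the interval, the only part where this was counted. Of all interval cytosines with at least 10 calls, 22.8% in Creole 1 to 33.3% in Creole 3 read exactly 0%. In the interval, an end cytosine at or under 10% was present in 52.6%, 60.9% and 58.3% of the methylated stacks of Creole 1 to 3 and in 65.2%, 50.9% and 71.8% of those of Spanish 1 to 3. The labels' protocols state that MspI ends were filled in with nucleotides before adapter ligation. The part of this step in the low end cytosines was not tested. Neighbouring positions 1 bp apart, the usual record of both strands of a CpG, read opposite (up to 10% on 1 strand, at least 90% on the other) in 252 of 1575 pairs in Creole 1 (16%) and in 20.3% to 31.7% in the other libraries. Over the rest of the chromosomes the share was 13.9% in Creole 1 and 16.6% to 22.2% in the others, lower than in the interval in 6 of 6 libraries, a difference that was not tested. Both positions were intermediate in 40 of 1575 pairs in Creole 1, in 1 of 329 in Spanish 3, and in 0 of 169, 0 of 41, 0 of 206 and 0 of 946 pairs in Creole 2, Creole 3, Spanish 1 and Spanish 2. Over the rest of the chromosomes such pairs were 10536 of 245596 in Creole 1, 605 of 27418 and 428 of 14636 in Creole 2 and 3, and 332 of 38900, 1283 of 136735 and 469 of 43198 in Spanish 1 to 3.

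Stacks in which at least 80% of the interior cytosines read between 20% and 80% are the closest in these data to the pattern of an imprinted region. There were 30, with 20 in Creole 1, 2 each in Creole 2 and 3, and 1, 4 and 1 in Spanish 1 to 3. That is 2.36% of stacks in Creole 1 and 0.263% to 1.01% in the others, against 3.13% and 0.416% to 0.67% over the rest of the chromosomes. In 4 of the 30, the methylated calls were identical at every interior cytosine. One of these lay at 48907829 to 48907957 in Creole 3, where 57 of 149 calls were methylated at each interior cytosine (38.3%), while Spanish 1 read 0% there. Another lay at 50290581 to 50290702 in Spanish 3, with 36 of 68 calls at each (52.9%), while Creole 2 averaged 89.3% and Spanish 2 75.0%. Creole 1 averaged 43.5% over 6 cytosines of that stretch, with 0 of the 6 between 20% and 80%. The third and the fourth were in Creole 1, at 50229311 to 50229391 with 11 of 24 calls (45.8%) and at 48778259 to 48778407 with 10 of 13 (76.9%). Near the gene range, Creole 1 held neighbouring intermediate stacks at 49550207 to 49550337 (33.3%) and 49550391 to 49550513 (43.8%), but the other libraries over the first of them averaged 66.7% in Creole 2 and 3.33%, 20% and 32.6% in Spanish 1 to 3, mostly from cytosines at or near 0% or 100%.

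The 30 stretches were read in the other libraries by a different rule from the one that found the stacks. It took all cytosines of the stretch with at least 10 calls, both strands and run ends included. Another library measured at least 3 such cytosines in 24 of the 30 stretches, giving 47 values. In 0 of the 47 were at least 66.7% of those cytosines between 20% and 80%. Some stacks fell short of this rule in their own library, such as 49955943 to 49956054 with 13 of 27 cytosines of Creole 1. The same count over the rest of the chromosomes was not made, so 0 of 47 was not set against a background. Without Creole 1, 10 stacks remained, of which 8 had levels between 35% and 65%. The plot of intermediate stacks shows the other libraries, averaged over all such cytosines of a stretch, from 0% to 100%. A region read in few libraries or hardly sampled, such as the segment before the gene range, could not be assessed in this way.

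**Figure D3:**
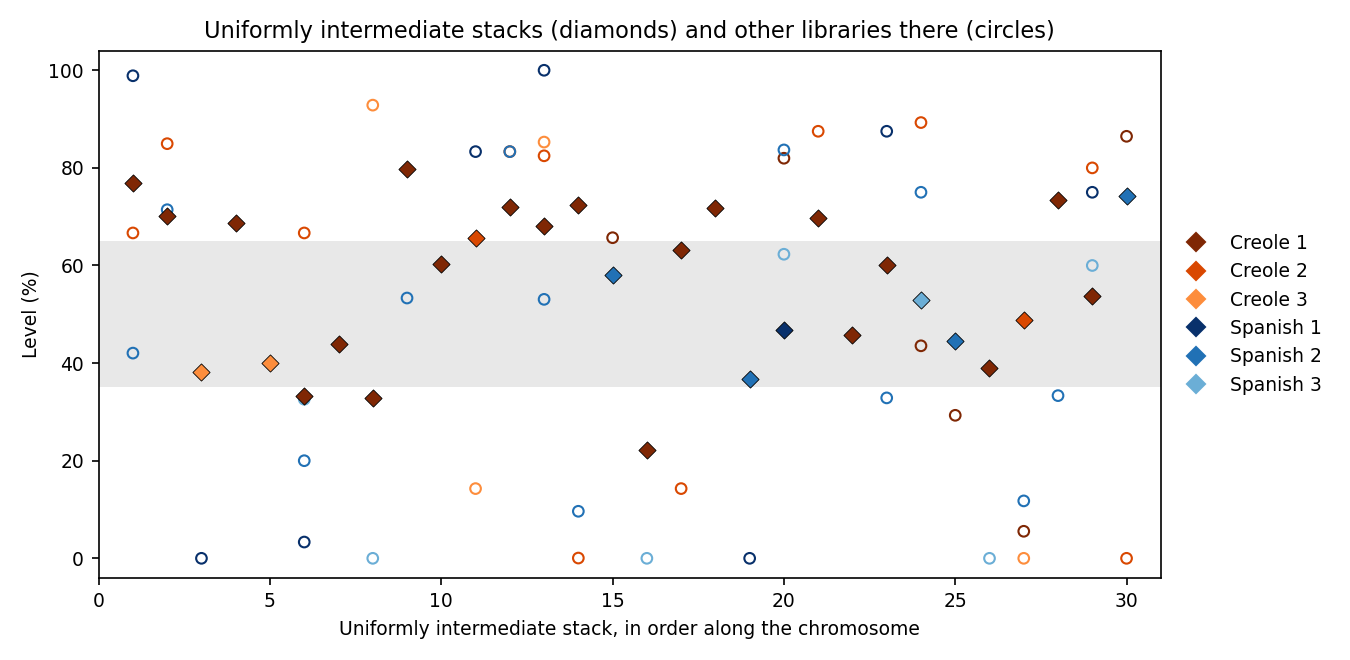
Methylation level (percent) of the 30 uniformly intermediate stacks of the interval in chromosomal order; diamonds are the library in which the stack was found and open circles the mean of cytosines with at least 10 calls in other libraries with at least 3 of them. Circles lie from 0% to 100%, and 20 of the 30 diamonds are Creole 1. Diamonds take the interior cytosines of 1 run and circles all cytosines of the stretch, so they are unlike measures. By the circle measure, Creole 1 read 42.3% at 49955943 to 49956054, where its diamond is at 72.4%. Creole 3 read 38.2% at 48907829 to 48907957, where its diamond is at 38.3%.

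The listed region assigned to KCNQ1 lies at 49721290 to 49721415 (126 bp, 7 CpGs), 31894 bp past the end of the gene range. The authors' deposited table gives no exon, intron or CpG island overlap for it and a distance of 44869 bp to the transcription start. Whether it falls in an intron of a longer KCNQ1 gene model was not examined here. Creole 1 read 95 of 178 calls as methylated, 53.4% (95% Wilson interval 46.0% to 60.6%). Spanish 1 read 1519 of 1529 (99.3%, 98.8% to 99.6%), Spanish 2 475 of 497 (95.6%, 93.4% to 97.1%) and Spanish 3 630 of 631 (99.8%, 99.1% to 100%). Creole 2 and Creole 3 had no call in the region. The Creole side of the contrast therefore rested on 1 library, 44.9 percentage points under the Spanish mean of 98.3% ± 2.33 (SD, n = 3), and it cannot be checked against a second Creole library.

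The value near 50% in Creole 1 was not uniform either. Counted in bp from the start of the region, the cytosines at 0 and 54 read 13 of 42 calls (31.0%), the one at 56 read 42 of 42, those at 88 and 96 read 13 of 13, and those at 92 and 125 read 0 of 13 and 0 of 12. A position at 48 had 1 call. The same cytosines read 96.8% to 100% in Spanish 1 and 98.9% to 100% in Spanish 3, and in Spanish 2 all read 100% except the last, with 49 of 71 calls (69.0%). The cytosine 18 bp before the region read 12 of 42 in Creole 1, 0 of 219 in Spanish 1, 71 of 71 in Spanish 2 and 91 of 91 in Spanish 3, so Spanish libraries disagreed completely just outside it. Calls fell from 42 to 13 within the region in Creole 1, which places its cytosines in at least 2 different runs. The 1000 bp bin that holds the region, 49721001 to 49722000, read 61.7% in Creole 1 over 28 cytosines, 86.9% in Spanish 1, 96.1% in Spanish 2 and 98.1% in Spanish 3. The bin before it read 22.9% and 16.7% in Creole 1 and 2 and 30.1%, 40.5% and 34.3% in Spanish 1 to 3. The groups did not overlap there. Of bins with at least 2 measured libraries in each group, 21.3% in the interval and 22.5% over all chromosomes showed no overlap. In the bin after it the groups overlapped, with 75.7%, 50.2% and 88.9% in Creole 1 to 3 and 82.0% and 75.8% in Spanish 1 and 3.

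**Figure D4:**
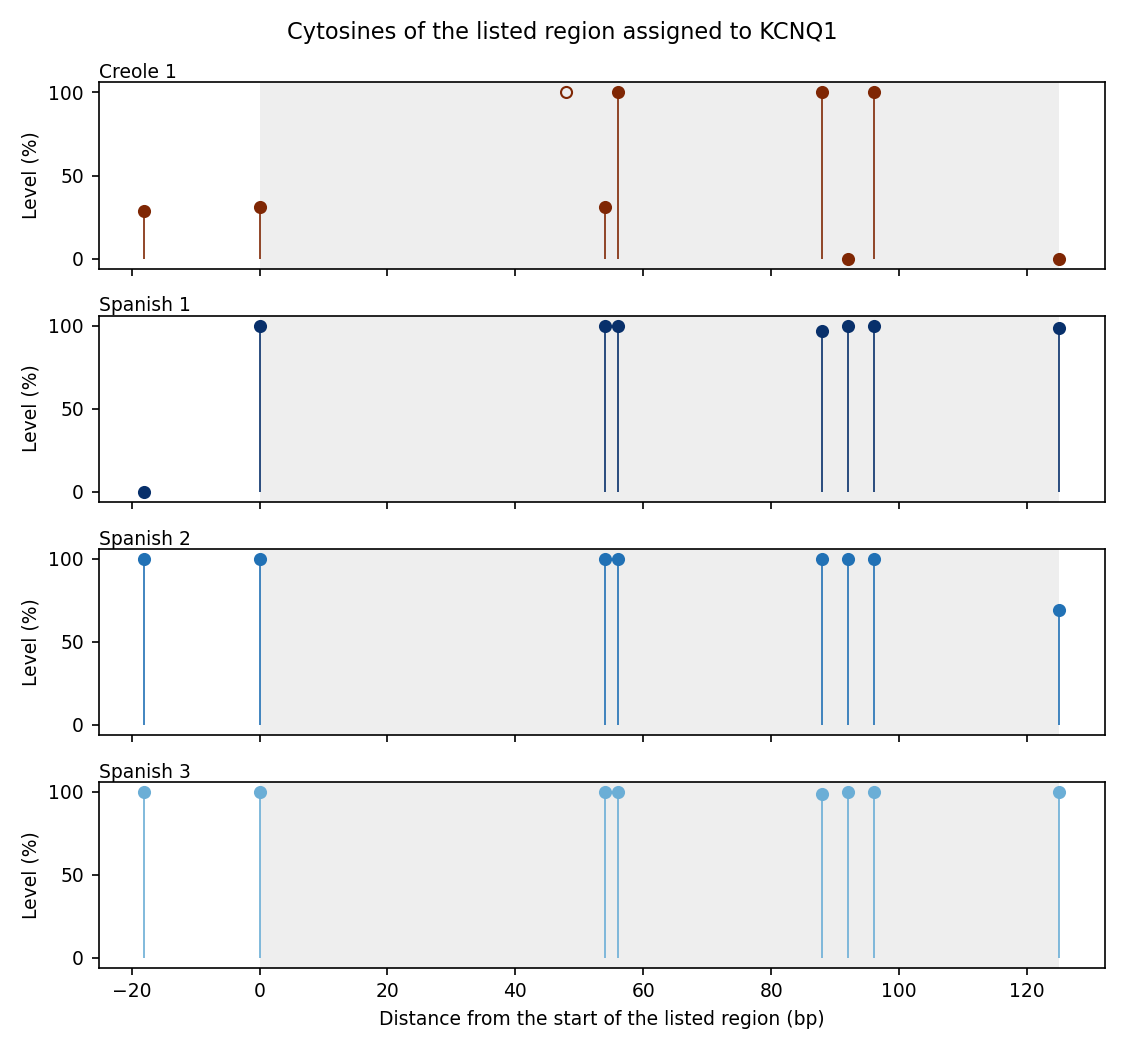
Methylation level (percent) of each cytosine against its distance in bp from the start of the listed KCNQ1 region (grey), for the 4 libraries that covered it; open circles have fewer than 10 calls. In Creole 1 the points sit at 0%, about 31.0% and 100%, while inside the region the Spanish libraries lie at 96.8% or more except the last cytosine of Spanish 2.

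The 5 listed regions elsewhere with levels most like the KCNQ1 region, by the mean absolute difference over at least 3 shared libraries among 227 regions that could be compared, lay in an exon of STON2 (chr10:93699582-93699661, 1.62 percentage points), in no named gene (chr8:113249946-113250029, 2.28), in an intron of Q3MU93_BOVIN (chr11:104021817-104021898, 2.82), in an intron of FRMD1 (chr9:103991282-103991336, 3.71) and in no named gene (chr21:69469970-69470024, 4.65). Each was covered in Creole 1 alone among the Creole libraries, at 53.6%, 49.5%, 50%, 46.8% and 43.4%, and every measured Spanish library read 99.4% to 100%. The likeness rests on 3 or 4 libraries and on the choice of listed regions by their group difference.

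A second listed region of the interval, at 49553708 to 49553846 (139 bp, 19 CpGs), has no gene in the authors' deposited table, which gives 86% in Creole and 5% in Spanish cattle. Its start has the position -122838 bp relative to the start of the gene range. Creole 1 read 209 of 220 calls (95%, Wilson interval 91.3% to 97.2%), with 18 of 19 cytosines at 100% and 1 at 0%. Spanish 3 read 78 of 2807 calls (2.78%), and Spanish 1 and Spanish 2 read 0 of 19 calls each, 1 call per cytosine (interval 0% to 16.8%). Creole 2 and Creole 3 had none. In Spanish 3 the methylated calls were 3 to 5 of 146 to 148 at each interior cytosine, an even low level across the whole run.

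Beyond this region, on the same side of the gene range, the contrast continued between Creole 1 and Spanish 3 but not with Spanish 1 and Spanish 2. At 49554203 to 49554346 the interior cytosines of Creole 1 read 93.0% at 10 to 11 calls and those of Spanish 3 read 0% at 15 to 16 calls, while Spanish 1 and Spanish 2 were fully methylated there but under 10 calls per cytosine. An overlapping run at 49554230 to 49554378 read 91.5% in Creole 3 at 86 to 89 calls, with all cytosines methylated except 1 at 0%. Creole 1 over that same run was one of its 30 intermediate stretches, with 3 to 7 methylated calls of 19 to 20 at each interior cytosine (32.8%). Creole 1 thus read methylated on one run and intermediate on an interleaved one of the same block. Many positions of the 2 runs lie 1 bp apart, such as 521 and 522 bp from the start of the listed region. Positions 1 bp apart are the usual record of both strands of a CpG. Creole 3 was read on the intermediate run's positions and Spanish 3 on the other's, so they shared no cytosine there. On the positions read in Spanish 3, at 15 to 16 calls, Spanish 1 and Spanish 2 had 2 calls and 1 call per cytosine. The plot of the block shows these values cytosine by cytosine.

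**Figure D5:**
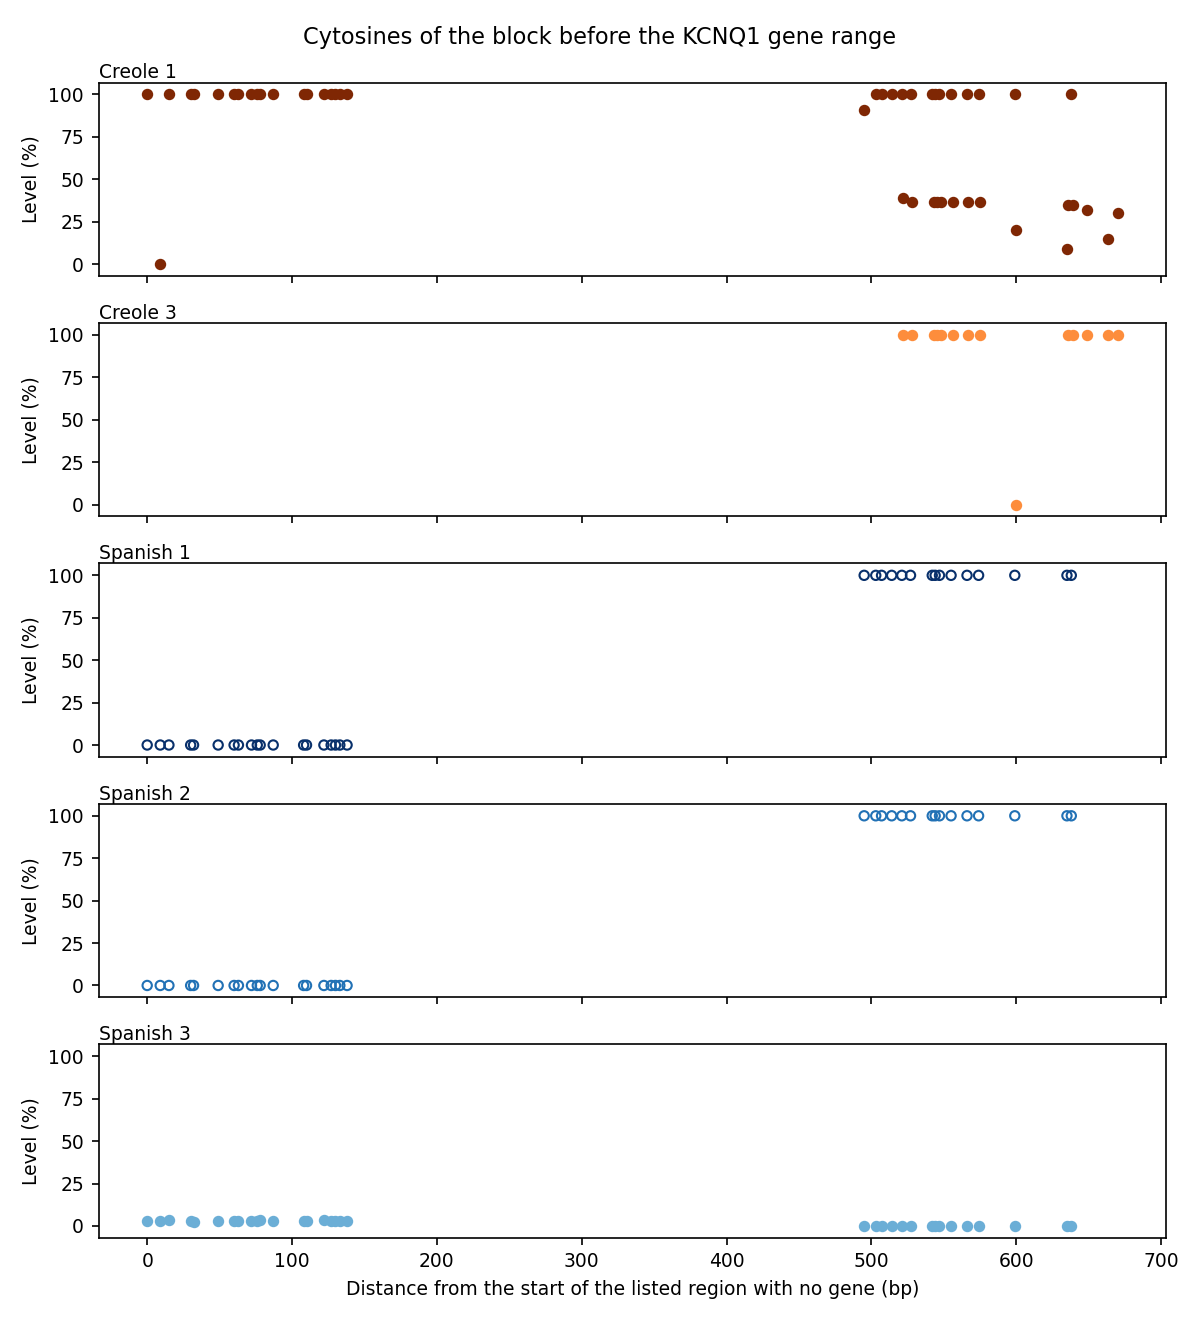
Methylation level (percent) of each cytosine against its distance in bp from the start of the listed region with no gene, for the 5 libraries that covered the block; open circles have fewer than 10 calls. Creole 1 and Spanish 3 are opposite over the first 138 bp, and further on Creole 1 holds a methylated and an intermediate run side by side.

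The third listed region lies at 50373133 to 50373222 (90 bp, 5 CpGs) in an intron of CRLF2, a cytokine receptor gene, for which the authors' deposited table gives 13% in Creole and 82% in Spanish cattle. Creole 1 read 0 of 74 calls (Wilson interval 0% to 4.93%), Creole 3 414 of 827 (50.1%), Spanish 1 35 of 35 (100%) and Spanish 2 96 of 120 (80%). Creole 2 and Spanish 3 had no call. The 50.1% of Creole 3 again came from 2 cytosines at 0% and 2 at 100%, and the 80% of Spanish 2 from 1 cytosine at 0% and 4 at 100%. The measured groups did not overlap, but this region was listed for that difference. Creole 3 shared no cytosine of the region with Spanish 1 or Spanish 2. Its 4 cytosines lay 1 bp past positions read in those libraries, so its value was not compared at the same cytosines.

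Opposite stacks, methylated in 1 library and unmethylated in another over at least 50 bp, were found at 5 places of the interval. They made up 11 of 1018 overlapping pairs of stacks (1.08%), beside 1836 of 158128 (1.16%) over the rest of the chromosomes. Within the interval they were 7 of 650 pairs between groups (1.08%), 2 of 140 within Creole (1.43%) and 2 of 228 within Spanish (0.877%). Over the rest of the chromosomes these shares were 1.19%, 1.26% and 1.01%. Opposite stacks thus occurred within both groups as well as between them, in the interval and elsewhere. Without Creole 1 they were 6 of 486 (1.23%), beside 1.26% over the rest of the chromosomes. The block described above is the first place. The second, 49865505 to 49865600, was unmethylated in Creole 2 (0 of 199 calls) and fully methylated in Spanish 3 (200 of 200), with 91.1% in Creole 1. The third, 50147491 to 50147608, set 2 Spanish libraries against each other: over the same run the interior cytosines read 100% at 19 calls in Spanish 1 and 0% at 31 calls in Spanish 2. At the fourth, 50240918 to 50241044, Spanish 3 read 16.7% while Creole 1, Creole 3 and Spanish 2 read 91.1%, 89.2% and 100%. At the fifth, 50566202 to 50566323, 2 Creole libraries differed, with 77.2% in Creole 1 and 1.20% in Creole 2, and Spanish 2 read 61.5%.

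The groups overlapped in mean level over the interval. The 17 cytosines measured in all 6 libraries averaged 62.1%, 70.5% and 70.6% in Creole 1 to 3 and 58.8%, 65.7% and 59.8% in Spanish 1 to 3. Creole 1 lay within the Spanish range and the groups overlapped. The means were 67.7% ± 4.89 (SD, n = 3) and 61.4% ± 3.71 (SD, n = 3), a difference of 6.29 percentage points (exact two-sided permutation test, p = 0.2; the smallest p for 3 against 3 is 0.1). Over each library's own cytosines the difference was -0.788 percentage points (exact permutation p = 0.5, n = 3 and 3), with the opposite sign. Neither difference passed the test.

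Windows of 1000 bp with at least 3 cytosines covered in all 6 libraries were tested between groups with edgeR's quasi-likelihood test on methylated and unmethylated counts, fitted over 4702 windows of all chromosomes. Of the 13 windows in the interval, 0 passed an adjusted p of 0.05, and percent called over all 4702 was 0. At an unadjusted p under 0.05, 0 of the 13 remained by this test, 1 by edgeR's likelihood ratio test and 2 by limma, and neither of those called any of the 13 after adjustment. Over all 4702 windows the unadjusted count was 252 by the quasi-likelihood test, 341 by the likelihood ratio test and 255 by limma. After adjustment the likelihood ratio test called 58 of all windows and limma 1. The smallest p in the interval was at 50583001 to 50584000, at 8.91% ± 14.0 for Creole and 41.7% ± 14.4 for Spanish cattle (SD, n = 3 each). Its Benjamini-Hochberg adjusted p from edgeR's quasi-likelihood test was 0.857. There Creole 2 and Spanish 3 both read 25.0%, so the groups met. Among the steadiest windows were the unmethylated ones beginning at 49878001 and 50276001, where no library exceeded 0.917%, and the window beginning at 49103001, at 85.8% ± 3.44 for Creole and 86.3% ± 1.17 for Spanish cattle (SD, n = 3 each). The window beginning at 50150001 varied most, from 11.2% in Spanish 1 and 30.2% in Creole 1 to 88.9% in Creole 2, Creole 3 and Spanish 2 and 89.0% in Spanish 3. The KCNQ1 region and the other listed regions were in none of the 13 windows, since no cytosine there was covered in all 6 libraries.

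With at least 2 measured libraries in each group, 63 of 296 bins of the interval (21.3%) had all values of one group above all of the other, and percent called over 37870 bins of all chromosomes was 22.5. Creole was higher in 22 (7.43%, percent called 10.5) and Spanish in 41 (13.9%, percent called 12.0). The combined share lay near that of all chromosomes, while the Creole-higher share was under and the Spanish-higher share over its background, and these differences were not tested. Among bins measured in all 6 libraries, 3 of 38 showed no overlap, against 11.7% of such bins over all chromosomes. Leaving out Creole 1 cut the 63 bins to 19 of 81 (24.5% over all chromosomes), and leaving out Creole 2 to 38 of 146 (26.6% over all chromosomes), with fewer bins then holding 2 libraries per group.

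The widest separations without overlap are given as values only, since they were picked by size. Higher in Creole was the bin 49554001 to 49555000, which holds part of the block, at 55.8% and 92.7% in Creole 1 and 3 against 0% in Spanish 2 and 3. The 0% of Spanish 2 came from 4 cytosines 1092 to 1168 bp from the start of the listed region, past the run at which it read methylated at 1 call per cytosine, so the bin set different cytosines side by side. The bin at 49947001 read 80% and 100% in Creole 1 and 3 against 33.3% and 25.0% in Spanish 1 and 2, from 3 to 5 cytosines each. The bin at 50185001 read 77.9% and 100% in Creole 1 and 2 against 0%, 39.5% and 67.1% in the Spanish libraries. Those beginning at 49388001 and 50341001 were low in Spanish cattle, at most 17.9% and 12.6%, and reached 58.2% and 44.4% in Creole 2.

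Higher in Spanish was the bin at 49865001, where Spanish 2 and 3 read 100%, Creole 1 84.3% and Creole 2 0%, so its size came from 1 Creole library. At 50161001, Creole 1 and 3 read 34.5% and 50.1% against 87.5% and 89.0% in Spanish 2 and 3. At 48728001, Creole 1 and 2 read 23.6% and 54.5% against 67.0% and 90.1%. The bin at 50293001 read 38.0% and 33.3% in Creole 1 and 3 against 94.4% and 50.4% in Spanish 2 and 3. The bin at 50156001 was the only 1 of these 10 measured in all 6 libraries, with 73.4%, 57.9% and 50.6% in Creole 1 to 3 and 100%, 89.2% and 100% in Spanish 1 to 3, from 4 to 26 cytosines each.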

How the data were processed

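Per the submitters' processing notes, Trim Galore, Bismark and methylKit were used with the assembly UMD3.1; no version of them is given in the sources used here. The authors deposited, for each library, methylated and unmethylated read counts and a percent per cytosine, strands apart, and a table of regions with mean levels as a fraction, a difference score and CpG counts. Total calls were 40986296 to 84537374 per library. Members and lists were chosen with earlier results of these data known; named bins are those with a shared class and the broadest coverage, those without group overlap and the 5 largest differences each way, and those at listed regions; the gene range bins and stack places were named after their values were seen. Bins used cytosines with at least 10 calls and at least 3 per bin and library. The stack, end, strand-pair and interval-against-rest comparisons were added after seeing the data. Group tests used edgeR 4.0.16 (windows summed over at least 3 cytosines covered in all 6 libraries, with at least 10 calls per window in each library; no dispersion trend) and limma 3.58.1 with 2 added to each count, and exact permutation tests in scipy 1.17.1; scripts were tested on simulated data. Wilson intervals are at 95%. Of marker lists for blood cells, 1 of 6 T cell genes (CD5) and 0 of 5 B cell, 0 of 6 neutrophil and monocyte, 0 of 4 natural killer and 0 of 5 erythrocyte and platelet genes had a listed region; cell composition could not be checked. No sequences were printed because no genome of this build was used here.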

Additional observations from a re-analysis of the deposited data

How the results depend on the processing

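Beside each count below stand the bins that could be assessed and the share over all chromosomes under the same setting. The count of 1000 bp bins near 50% was 1 of 373 (0.589%). It became 2 of 469 with 5 calls per cytosine (0.553%), 0 of 179 with 20 calls (0.767%), 0 of 373 with limits of 40 to 60% (0.174%), 4 of 373 with 30 to 70% (4.57%), 3 of 409 with 2 cytosines per bin (1.67%), and 7 of 768 with 2 measured libraries (1.83%; chosen after seeing the data). The 100 bp count of 1 of 248 (0.781%) became 0 of 91 with 20 calls (1.37%), 8 of 248 with 30 to 70% (3.87%), 6 of 376 with 2 cytosines (2.27%), 0 of 90 with 5 cytosines (0.883%), 0 of 251 with a shifted grid (0.731%), 0 of 176 without end cytosines (0.716%), and 2 of 704 and 11 of 1207 with 3 and 2 measured libraries (0.684% and 1.28%). Leaving out 1 library at a time gave 0 to 1 at both sizes. These counts were of 171 to 289 bins of 1000 bp (0.730% to 0.904%) and 73 to 171 bins of 100 bp (1.09% to 1.70%). Bins without overlap between groups numbered 33 of 139 with 20 calls (23.8%) and 3 of 38 when all 6 libraries were required (11.7%). With 1 library left out they numbered 19 to 51, of 81 to 215 bins (24.5% to 26.8% over all chromosomes, added after seeing the data). The KCNQ1 region difference was -42.5 percentage points without end cytosines and -46.2 to -44.1 with 1 library left out; without Creole 1 there is no value. The difference in mean level over the interval reversed to -1.10 for the pooled share of calls and -0.788 over each library's own cytosines, and ran from -2.80 to 9.12 with 1 library left out. The cause of these changes was not tested. Windows called stayed at 0 of the interval's windows under 11 alternatives. No paired analysis was possible because replicate numbers follow accession order and pair no animals.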
